A study of Homo sapiens with 12 samples.

Results

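The genes described here are 5 matrix metalloproteases (MMP1, MMP3, MMP9, MMP13 and MMP14) and 3 tissue inhibitors of metalloproteases (TIMP1, TIMP2 and TIMP3). They were chosen by gene symbol and are 8 of the 27745 genes of the count table and of the 60675 genes of the RNA immunoprecipitation tables. All libraries came from MDA-MB231, a long-established human breast cancer line of the triple-negative kind that migrates and invades readily in culture. In the first experiment, cells carried a stable lentiviral short hairpin RNA: a control hairpin (sh_control), a hairpin against TDP43 (sh_TDP43) or a hairpin against SRSF3 (sh_SRSF3), with 2 RNA-seq libraries each. In the second, cells overexpressed Flag-tagged TDP43 or Flag-tagged SRSF3, and RNA recovered with a Flag antibody (RNA immunoprecipitation, RIP) was sequenced beside its input, with 1 library of each kind and no mock precipitation. The labels also name cells with both hairpins, which were not analysed here.

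Matrix metalloproteases are zinc-dependent enzymes that are made as inactive precursors and, once activated, cut collagens, laminins and other components of the extracellular matrix. MMP1 and MMP13 are secreted collagenases, MMP3 is a stromelysin, MMP9 is a gelatinase, and MMP14 (membrane type 1 matrix metalloprotease) is anchored in the plasma membrane, where it cuts collagen and activates the precursor of MMP2. The TIMP proteins bind the active site of these enzymes: TIMP1 is secreted and inhibits MMP14 poorly, TIMP2 inhibits MMP14 and also bridges it to the MMP2 precursor, and TIMP3 is held in the matrix and also inhibits several ADAM proteases. In breast tumours both proteases and inhibitors are made by tumour cells and by the surrounding stroma. TDP43, encoded by TARDBP, and SRSF3 are nuclear RNA-binding proteins that act on splicing and other steps of RNA metabolism.

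Library depth was 34457445 to 38326930 counted reads in the hairpin experiment. TARDBP was at 168 and 125 CPM (read counts scaled for library size and composition) in the control libraries and at 34.4 and 31.3 in the sh_TDP43 libraries. SRSF3 was at 459 and 404 CPM in the control, at 64.1 and 61.7 in sh_SRSF3, and also lower in sh_TDP43, at 187 and 180 (log2 change -1.23, adjusted p = 3.05e-07). TARDBP in turn was lower in sh_SRSF3, at 107.9 and 101.5 CPM (log2 change -0.48, adjusted p = 0.00326). All 6 markers fixed for the line (VIM, CD44, AXL, KRT18, KRT8 and EGFR) reached 1 CPM in every library. PGR, which triple-negative cells lack, had no reads in the control and sh_TDP43 libraries. ERBB2 lay at 84.0 to 90.3 CPM and ESR1 at 0.161 to 1.86. PGR, ERBB2 and ESR1 belong to a list of 8 luminal breast markers, of which 5 reached 1 CPM in both libraries of every group. The list summed to 379.9 to 382.8 CPM in the control, 388.9 to 401.8 in sh_TDP43 and 340.5 to 340.6 in sh_SRSF3, mostly from KRT19. Of the 6 luminal markers tested, CDH1 rose in both knockdowns (log2 change 1.04 and 3.59) and KRT19 fell in sh_SRSF3 (-0.32). No other passed the test. Summed fibroblast markers were at 9.31 to 10.1 CPM in the control, 11.7 to 11.8 in sh_TDP43 and 14.4 to 16.9 in sh_SRSF3, where LUM made up most of the sum and DPT and PDGFRA had no reads. Of the 3 fibroblast markers tested, LUM rose in sh_SRSF3 (log2 change 4.76) while PDGFRB (-2.22) and ACTA2 (-2.58) fell. Summed haematopoietic markers were at 2.50 to 3.29, 3.37 to 4.99 and 0.720 to 0.781 CPM in the same order, with HBB at 0 throughout. Of the 3 haematopoietic markers tested, PTPRC rose in sh_TDP43 (log2 change 1.92), where CD14 and CSF1R did not pass the test. In sh_SRSF3 all 3 fell: PTPRC (-1.59), CD14 (-1.97) and CSF1R (-2.26). The part of any of these marker lists in the results was not tested.

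Of the 8 genes, 4 were abundant, MMP1 was scarce, and MMP3, MMP9 and MMP13 were at or near the limit of detection. With a limit of 1 CPM in both libraries of a group, 5 of the 8 genes (MMP1, MMP14, TIMP1, TIMP2 and TIMP3) were expressed in sh_control and in sh_TDP43, and 4 in sh_SRSF3, where MMP1 dropped out. Per exon length, as RPKM (CPM divided by the exon length of the gene), the order in the control was TIMP1 (209 and 275), MMP14 (116 and 126), TIMP2 (98.9 and 110), TIMP3 (79.5 and 114) and MMP1 (0.847 and 1.51). TIMP1 stood above the other genes beyond the spread of its libraries, MMP14 lay narrowly above TIMP2, and TIMP2 and TIMP3 overlapped. In sh_TDP43 the order was TIMP1 (151 and 180), TIMP2 (93.9 and 79.7), MMP14 (44.2 and 53.5) and TIMP3 (40.5 and 46.9), with the last pair overlapping. In sh_SRSF3 it was TIMP1 (191 and 207), TIMP2 (105 and 99.7), MMP14 (17.5 and 20.1) and TIMP3 (6.85 and 8.04), with no overlap between neighbours.

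**Figure D1:**
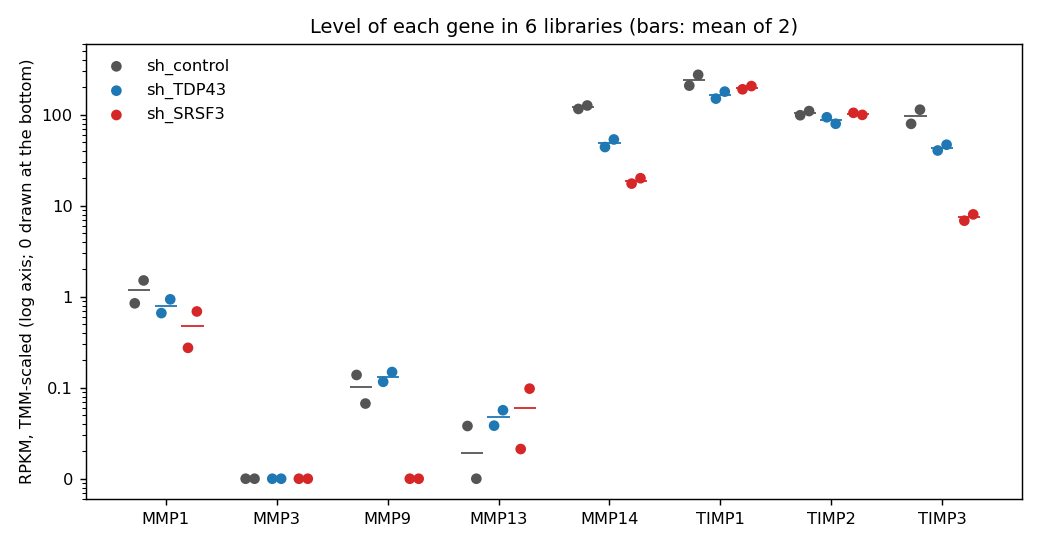
Level of each of the 8 genes in every hairpin library, as RPKM (composition-scaled, log axis with 0 drawn at the bottom), coloured by sh_control, sh_TDP43 and sh_SRSF3, with 1 point per library and a line at the mean of 2 libraries. MMP14 and TIMP3 step down from the control to sh_TDP43 to sh_SRSF3, TIMP2 stays between 79.7 and 110 RPKM, and MMP3 has no reads in any library.

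The promoter stretches of MMP14, TIMP1 and TIMP3 are shown because the RNAs of MMP14 and TIMP3 fell in both knockdowns whereas that of TIMP1 passed the test in sh_TDP43 alone. They come from the stretches held for 3 of the 8 genes in the RefSeq promoter table (GRCh38.p14), all on the plus strand. Each was cut before the earlier of the RefSeq start and the gene start annotated with the RIP values. Bases between that cut and a later RefSeq start were therefore neither shown nor searched for motifs. The stretches are written 5′ to 3′ with each GC box (GGGCGG on either strand, hence also CCGCCC) in capitals. MMP14 lies at chr14:22836335-22836556 in that build, TIMP1 at chrX:47582186-47582312 and TIMP3 at chr22:32801455-32801700.
MMP14: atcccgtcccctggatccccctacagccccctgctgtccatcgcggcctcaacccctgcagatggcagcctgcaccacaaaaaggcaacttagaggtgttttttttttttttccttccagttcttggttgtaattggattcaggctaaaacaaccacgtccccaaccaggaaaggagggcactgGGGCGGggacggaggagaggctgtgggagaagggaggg
TIMP1: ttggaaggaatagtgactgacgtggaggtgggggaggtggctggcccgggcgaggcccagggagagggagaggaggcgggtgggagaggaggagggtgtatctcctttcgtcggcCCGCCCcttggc
TIMP3: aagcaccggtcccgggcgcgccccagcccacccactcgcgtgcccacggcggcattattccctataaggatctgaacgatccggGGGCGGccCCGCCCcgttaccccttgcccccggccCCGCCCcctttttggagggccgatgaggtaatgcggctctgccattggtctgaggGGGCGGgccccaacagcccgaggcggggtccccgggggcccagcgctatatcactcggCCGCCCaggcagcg
The MMP14 stretch of 222 bases and the TIMP1 stretch of 127 bases held 1 GC box each, and the TIMP3 stretch of 246 bases held 5. Among 35116 promoters cut to the same lengths, 39.2%, 21.8% and 42.2% held at least 1 GC box. The stretches were GC-rich, at 56.3% G and C in MMP14, 67.7% in TIMP1 and 72.0% in TIMP3. Neither the AP-1 motif TGANTCA nor the TATA box TATAAA was found in these windows. The AP-1 letters occurred in 6.02%, 3.16% and 6.52% of all promoters of the 3 lengths, and the TATA box in 8.16%, 5.51% and 10.7%.

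MMP14 was the only strongly expressed protease of the set, and its RNA fell in both knockdowns. MMP14 (ENSG00000157227) lies on GRCh37 chromosome 14 from 23305766 to 23318236. Its reads numbered 19241 and 21635 in the control, 7271 and 8936 in sh_TDP43, and 2603 and 3236 in sh_SRSF3. As CPM these were 518 and 565, 197 and 239, and 78.2 and 89.6. The 3 groups did not overlap, and each knockdown library lay below both controls.

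MMP14 was 2.48-fold lower in sh_TDP43 (log2 change -1.31, SE 0.11, 95% interval -1.55 to -1.07, edgeR quasi-likelihood adjusted p = 7.75e-07) and 6.45-fold lower in sh_SRSF3 (log2 change -2.69, SE 0.12, adjusted p = 4.96e-10). Both contrasts share the same control libraries. Set directly against sh_TDP43, MMP14 was lower again in sh_SRSF3 (log2 difference -1.38, SE 0.11, adjusted p = 1.33e-07). Of the 15026 genes tested, 4.27% had a lower log2 change than MMP14 in sh_TDP43 and 5.34% in sh_SRSF3. The labels do not say that the libraries of a group came from separate cultures, and they name 1 hairpin per target, so these p-values measure the spread between libraries only. Bulk RNA cannot tell fewer cells that express a gene from less of its RNA per cell.

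The secreted proteases of the set were scarce. MMP1 (ENSG00000196611, chromosome 11, 102660651 to 102668891) had 62 and 114 reads in the control, 48 and 69 in sh_TDP43, and 18 and 49 in sh_SRSF3. As CPM these were 1.67 and 2.97, 1.30 and 1.84, and 0.541 and 1.36. The control and sh_TDP43 overlapped, and both sh_SRSF3 libraries lay below both controls. In sh_SRSF3 MMP1 was lower (log2 change -1.28, SE 0.45, adjusted p = 0.0214). This call rested on single libraries: the log2 change was -0.80 (adjusted p = 0.21) without control library 2 and -0.77 (adjusted p = 0.161) without sh_SRSF3 library 1. In sh_TDP43 the log2 change was -0.56 (SE 0.43, 95% interval -1.48 to 0.36, adjusted p = 0.305), an interval that also holds no change.

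MMP9 (ENSG00000100985, chromosome 20, 44637547 to 44645200) had 12 and 6 reads in the control, 10 and 13 in sh_TDP43, and 0 in both sh_SRSF3 libraries. It passed the filter on low counts only through the groups where reads were present, so it had to differ. With a floor of 3 counts per library, MMP9 in sh_SRSF3 was at least 2.77-fold lower than in the control and at least 3.57-fold lower than in sh_TDP43. In sh_TDP43 its log2 change was 0.37 (SE 0.74, adjusted p = 0.713). MMP13 (ENSG00000137745, chromosome 11, 102813724 to 102826463) had 4 and 0 reads in the control, 4 and 6 in sh_TDP43, and 2 and 10 in sh_SRSF3, too few for a test. MMP3 (ENSG00000149968, chromosome 11, 102706532 to 102714534) had no read in any of the 6 libraries, which allows up to 0.0783 to 0.0901 CPM per library.

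MMP1, MMP3 and MMP13 share a position that the choice of genes did not use. They belong to a row of 9 MMP genes on GRCh37 chromosome 11 between 102391239 and 102826463 (MMP7, MMP20, MMP27, MMP8, MMP10, MMP1, MMP3, MMP12 and MMP13). All 9 together gave 455 reads over the 6 libraries. MMP1 gave 360 of them and was the one gene of the row with 20 reads in any library, while MMP3 and MMP27 had none.

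MMP14 also dominated the family as a whole. Over 23 MMP genes of the count table, summed RPKM was 123 and 136 in the control, 51.9 and 63.2 in sh_TDP43, and 22.7 and 26.9 in sh_SRSF3. MMP14 made up 94.6% and 93.2% of that sum in the control, 85.1% and 84.7% in sh_TDP43, and 77.2% and 74.8% in sh_SRSF3. The groups did not overlap in either measure. MMP19 had the next largest share, 1.58% and 2.45% in the control, 4.45% and 5.45% in sh_TDP43, and 12.9% and 14.9% in sh_SRSF3. The log2 changes of MMP19 itself, 0.13 in sh_TDP43 and 0.40 in sh_SRSF3, did not pass the test. MMP2, the protease whose precursor MMP14 activates, had 0 to 10 reads per library.

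Of the inhibitors, TIMP3 fell in both knockdowns, TIMP1 fell in sh_TDP43, and TIMP2 moved least. TIMP3 (ENSG00000100234) lies on GRCh37 chromosome 22 from 33197687 to 33259030. It had 13607 and 20072 reads in the control, 6869 and 8072 in sh_TDP43, and 1050 and 1336 in sh_SRSF3. As CPM these were 366 and 524, 186 and 216, and 31.5 and 37.01. The groups stood in 3 separate steps, and the control libraries differed from each other more than the knockdown libraries did.

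TIMP3 was 2.21-fold lower in sh_TDP43 (log2 change -1.15, SE 0.14, adjusted p = 2.51e-05) and 13.0-fold lower in sh_SRSF3 (log2 change -3.70, SE 0.16, adjusted p = 4.85e-10). Against sh_TDP43 it was lower in sh_SRSF3 (log2 difference -2.55, SE 0.15, adjusted p = 8.07e-09). A lower log2 change than that of TIMP3 was found for 5.78% of tested genes in sh_TDP43 and for 2.12% in sh_SRSF3. TIMP3 lies within SYN3 on the opposite strand and shares no exon base with it, and SYN3 had at most 11 reads in a library. TIMP3 is the inhibitor with the broadest range of targets, ADAM17 among them.

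TIMP1 (ENSG00000102265, chromosome X, 47441712 to 47446188) was at 322 and 424 CPM in the control, 232 and 277 in sh_TDP43, and 294 and 319 in sh_SRSF3. Both knockdown groups lay below the controls, sh_SRSF3 only narrowly. TIMP1 fell in sh_TDP43, 1.47-fold (log2 change -0.55, SE 0.13, adjusted p = 0.00285). In sh_SRSF3 the log2 change was -0.29 (SE 0.13, 95% interval -0.56 to -0.01, adjusted p = 0.0595), and without control library 1 it was -0.47 (adjusted p = 0.00228). Between the knockdowns the log2 difference was 0.27 (SE 0.13, adjusted p = 0.077), so a difference in TIMP1 between them was not shown. TIMP1 lies within SYN1 on the opposite strand, with no shared exon base and 3 to 26 SYN1 reads per library.

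TIMP2 (ENSG00000035862, chromosome 17, 76849059 to 76921469) was at 557 and 619 CPM in the control, 529 and 449 in sh_TDP43, and 592 and 562 in sh_SRSF3. The sh_TDP43 libraries lay below both controls, and the sh_SRSF3 libraries lay between them. In sh_TDP43 TIMP2 was 1.20-fold lower (log2 change -0.27, SE 0.10, adjusted p = 0.0498), at the edge of the threshold. That call was lost without control library 2 (-0.20, adjusted p = 0.19), without sh_TDP43 library 2 (-0.15, adjusted p = 0.395), without either sh_SRSF3 library and under 4 other settings. In sh_SRSF3 the log2 change was -0.03 (SE 0.10, 95% interval -0.25 to 0.19, adjusted p = 0.828), an interval that holds small changes in either direction. TIMP2 shares 198 exon bases (3.52% of its exon length) with CEP295NL on the same strand, which had 28 to 95 reads.

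**Figure D2:**
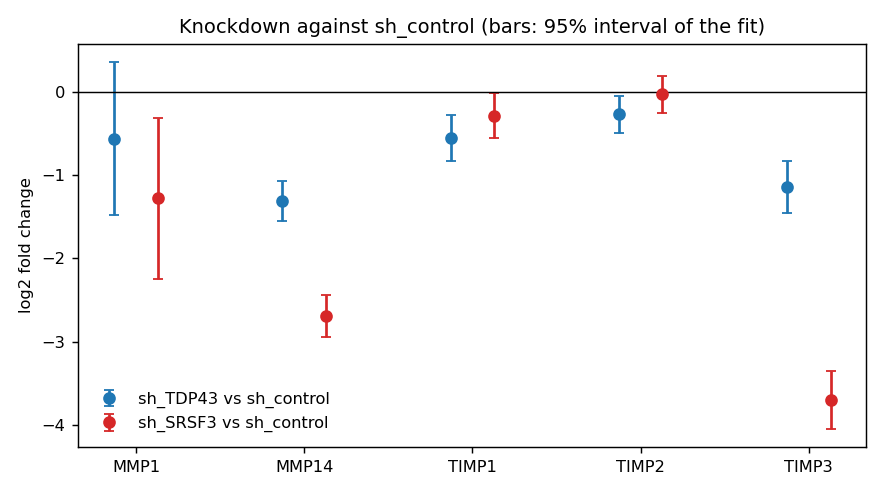
Log2 fold change (y axis) of MMP1, MMP14, TIMP1, TIMP2 and TIMP3 against sh_control, with bars for the 95% interval of the fit, in sh_TDP43 and in sh_SRSF3. MMP14 (-1.31 and -2.69) and TIMP3 (-1.15 and -3.70) lie farthest below 0 among the 4 abundant genes, and TIMP2 in sh_SRSF3 lies at -0.03.

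Counted together, 6 of the 8 genes could be tested, since MMP3 and MMP13 did not pass the filter on low counts. In sh_TDP43 4 of the 6 fell (MMP14, TIMP1, TIMP2 and TIMP3) and none rose, where 44.8% of all tested genes were called, 24.1% lower and 20.7% higher. MMP9, with no reads in sh_SRSF3, had to differ there and is left out of the counts that follow. In sh_SRSF3 3 of the other 5 fell (MMP1, MMP14 and TIMP3) and none rose, where 66.9% of all tested genes were called, 34.4% lower and 32.5% higher. In sh_SRSF3 against sh_TDP43 2 of these 5 were lower (MMP14 and TIMP3) and none higher, where 65.5% were called, 33.5% lower and 32.0% higher. Genes called and at least 2-fold lower, as MMP14 and TIMP3 were in both knockdowns, made up 6.44% of tested genes in sh_TDP43 and 20.4% in sh_SRSF3. Groups that did not overlap were common: the CPM of 73.2% of tested genes did not overlap between sh_TDP43 and sh_control, of 83.2% between sh_SRSF3 and sh_control, and of 83.8% between sh_SRSF3 and sh_TDP43. With such shares neither a call nor the lack of overlap sets a gene apart by itself.

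The balance between MMP14 and its inhibitors differed by inhibitor. The ratio of MMP14 to TIMP1 (RPKM over RPKM) was 0.554 and 0.460 in the control, 0.294 and 0.298 in sh_TDP43, and 0.0919 and 0.0971 in sh_SRSF3. MMP14 to TIMP2 was 1.17 and 1.15, then 0.471 and 0.672, then 0.167 and 0.201. MMP14 to TIMP3 was 1.46 and 1.11, then 1.09 and 1.14, then 2.56 and 2.50. The first 2 ratios stepped down from group to group, whereas the third was highest in sh_SRSF3, and its control and sh_TDP43 values overlapped. With 2 libraries a group the smallest exact two-sided permutation p is 0.333, so the ratios are given without a test.

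The makeup of the TIMP family differed between the groups as well. Summed RPKM of the 4 TIMP genes was 388 and 499 in the control, 285 and 306 in sh_TDP43, and 303 and 315 in sh_SRSF3. TIMP3 made up 20.5% and 22.8% of it in the control, 14.2% and 15.3% in sh_TDP43, and 2.26% and 2.56% in sh_SRSF3. TIMP1 made up more than any other inhibitor in every library, from 52.8% to 65.7%.

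**Figure D3:**
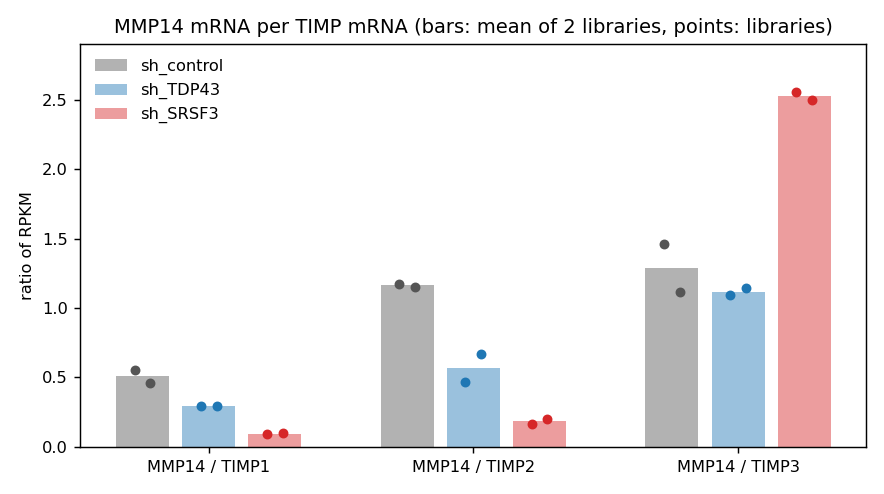
Ratio of MMP14 to TIMP1, TIMP2 and TIMP3 (RPKM over RPKM, y axis), with 1 point per library and bars at the mean of the 2 libraries of each hairpin group. The ratios to TIMP1 and TIMP2 are lower in each successive group, and the ratio to TIMP3 is highest in the 2 sh_SRSF3 libraries (2.56 and 2.50).

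Patterns were compared by the root mean square distance of log2 levels over the 6 libraries, each gene centred on its mean in the control libraries. The pattern of MMP14 was closest to those of TMEM63A (0.1001), IRF1 (0.107) and CSF1 (0.118) among 9473 genes. The nearest patterns to that of TIMP3 were those of GJB2 (0.168), ARPIN (0.212) and SEMA3A (0.232). TIMP2 was nearest to RPS6 (0.0532), OAT (0.0550) and JAK1 (0.0587), all with small changes in both knockdowns.

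Among the other MMP genes, 9 of 18 could be tested. In sh_TDP43 2 rose and 2 fell, and in sh_SRSF3 none rose and 4 fell, with median log2 changes of 0.13 and -0.77 beside -0.0036 and -0.03 over all genes. Of all tested genes, 20.7% rose and 24.1% fell in sh_TDP43, and 32.5% rose and 34.4% fell in sh_SRSF3. The other MMP genes are named here after their values were seen. MMP24, a membrane-anchored protease of the same class as MMP14, was at 3.58 and 3.81 CPM in the control, 9.44 and 10.7 in sh_TDP43, and 3.73 and 3.13 in sh_SRSF3. It rose in sh_TDP43 (log2 change 1.45, SE 0.20, adjusted p = 5.35e-05), and its log2 change in sh_SRSF3 was -0.11 (adjusted p = 0.66). MMP28, with 14 to 61 reads per library, was called higher in sh_TDP43 (1.20, adjusted p = 0.0329), a call lost without any 1 of the 4 libraries compared and under DESeq2 (adjusted p up to 0.184).

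The other membrane-anchored members that were tested are MMP15, MMP16, MMP17 and MMP25, grouped here after their values were seen. Of all tested genes, 24.1% fell in sh_TDP43 and 34.4% in sh_SRSF3. MMP15 fell in both knockdowns (-1.36, adjusted p = 0.00235, and -1.76, adjusted p = 0.000191), as did MMP17 (-1.32, adjusted p = 0.0128, and -2.73, adjusted p = 7.2e-05). The MMP17 call in sh_TDP43 was lost without control library 2 or sh_TDP43 library 1 (adjusted p up to 0.118). MMP16 fell in sh_SRSF3 (-0.77, adjusted p = 0.00971, up to 0.0819 without sh_SRSF3 library 2), had a log2 change of -0.49 in sh_TDP43 (adjusted p = 0.101), and was not shown to differ between the knockdowns (-0.29, adjusted p = 0.306). MMP25 fell in sh_SRSF3 (-2.12, adjusted p = 0.000683), had a log2 change of 0.58 in sh_TDP43 (adjusted p = 0.215), and was lower in sh_SRSF3 than in sh_TDP43 (-2.70, adjusted p = 7.96e-05). In sh_SRSF3 against sh_TDP43, MMP24 was lower (log2 difference -1.56, SE 0.20, adjusted p = 1.1e-05).

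Of 4 other inhibitors of metalloproteases, 3 could be tested, with 1 higher and 1 lower in sh_TDP43 and 2 lower in sh_SRSF3, counting TIMP4. Over all tested genes 20.7% rose and 24.1% fell in sh_TDP43, and 32.5% rose and 34.4% fell in sh_SRSF3. RECK, a membrane-anchored inhibitor of MMP9 and MMP14, was at 12.6 and 16.6 CPM in the control, 22.8 and 27.1 in sh_TDP43, and 7.93 and 7.15 in sh_SRSF3. The groups did not overlap and lay on opposite sides of the control. RECK rose in sh_TDP43 (log2 change 0.77, SE 0.16, adjusted p = 0.00126) and fell in sh_SRSF3 (-0.96, SE 0.17, adjusted p = 0.000152). The direct difference between the knockdowns was -1.73 (SE 0.16, adjusted p = 5.68e-07). TFPI2, a secreted inhibitor of serine proteases that also acts on matrix metalloproteases, was called lower in sh_TDP43 (-0.44, adjusted p = 0.0241) and had a log2 change of -0.06 in sh_SRSF3. The TFPI2 call was lost without control library 2 (-0.16, adjusted p = 0.337), without sh_TDP43 library 1 (-0.36, adjusted p = 0.155) or 2 (-0.51, adjusted p = 0.0602) and under upper-quartile scaling (-0.34, adjusted p = 0.0714). TIMP4 had 30 and 48 reads in the control, 21 and 6 in sh_TDP43, and 8 and 5 in sh_SRSF3. It was called lower in sh_SRSF3 (-2.43, adjusted p = 0.0062), a call lost without control library 2 or sh_SRSF3 library 2. TIMP4 passed the filter on low counts through the control, where it was highest, so this call carries little weight.

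**Figure D4:**
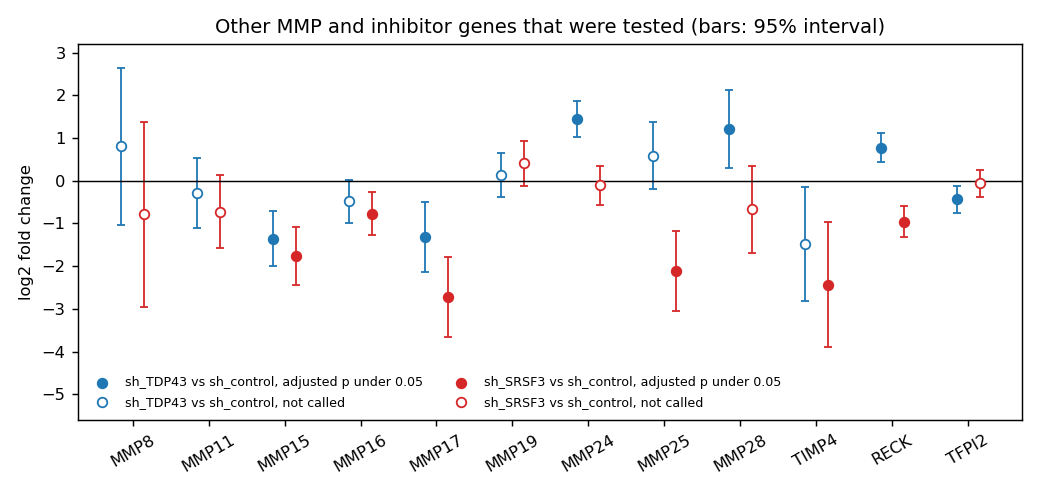
Log2 fold changes against sh_control (y axis) of the 9 other MMP genes and 3 other inhibitors that were tested, in sh_TDP43 and sh_SRSF3, with bars for the 95% interval; filled points passed the test. MMP24 (1.45 and -0.11) and RECK (0.77 and -0.96) differ between the knockdowns, while MMP15 and MMP17 lie below 0 in both.

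All 12 genes of MMP activation, docking and uptake could be tested: 4 rose and 2 fell in sh_TDP43, and 4 rose and 4 fell in sh_SRSF3, with medians of 0.27 and -0.09. Over all tested genes 44.8% were called in sh_TDP43 and 66.9% in sh_SRSF3, so these counts do not set the list apart. FURIN, the convertase that activates the MMP14 precursor inside the cell, fell in both (-0.76, SE 0.10, adjusted p = 2.49e-05, and -1.11, SE 0.10, adjusted p = 2.2e-07). PCSK7, a related convertase, rose in both (0.66 and 0.52). CAV1, a component of the caveolae through which MMP14 is taken up, went from 779 and 803 CPM in the control to 286 and 218 in sh_TDP43 and to 1173 and 1170.1 in sh_SRSF3, that is, it fell in the first (-1.65, adjusted p = 1.48e-07) and rose in the second (0.57, adjusted p = 0.000584). LRP1, an endocytic receptor for MMP and TIMP proteins, fell in sh_SRSF3 (-1.39, adjusted p = 7.27e-06), and so did CD44, which docks MMP14 and MMP9 at the cell surface (-1.04, adjusted p = 4.63e-07).

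Of 12 tested ADAM and ADAMTS proteases, several of which TIMP3 inhibits, 2 rose and 8 fell in sh_TDP43 and 4 rose and 7 fell in sh_SRSF3, with medians of -0.88 and -0.83. Over all tested genes 20.7% rose and 24.1% fell in sh_TDP43, and 32.5% rose and 34.4% fell in sh_SRSF3. ADAM19 fell in both knockdowns (-1.62 and -2.76, adjusted p = 2.07e-07 and 7.96e-10), and ADAMTS15 fell more in sh_TDP43 (-1.63) than in sh_SRSF3 (-0.37), with a direct difference of 1.26 (adjusted p = 1.14e-07). ADAMTS6 rose in sh_SRSF3 (2.27, adjusted p = 4.74e-08). ADAM17, the sheddase that TIMP3 inhibits, was at 29.0 and 30.8 CPM in the control, 16.9 and 20.2 in sh_TDP43, and 73.0 and 86.9 in sh_SRSF3. It fell in the first knockdown (-0.69, adjusted p = 0.00047) and rose in the second (1.42, adjusted p = 1.69e-07), and it is named after its values were seen.

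Transcription factors known to act on MMP promoters were also mixed: of 15 tested, 3 rose and 9 fell in sh_TDP43 and 4 rose and 7 fell in sh_SRSF3, with medians of -0.35 and -0.18. The shares over all tested genes were 20.7% higher and 24.1% lower in sh_TDP43, and 32.5% and 34.4% in sh_SRSF3. FOSL1, a subunit of AP-1, fell in both (-1.24, SE 0.10, adjusted p = 5.11e-07, and -0.95, adjusted p = 1.39e-06), as did FOSL2 (-0.92 and -1.97). ETV4, an ETS-family factor, fell from 84.9 and 82.0 CPM to 26.3 and 25.1 in sh_TDP43 and to 12.4 and 11.5 in sh_SRSF3 (-1.70 and -2.80, adjusted p = 3.61e-08 and 2.5e-10). Another AP-1 subunit, FOS, fell in sh_TDP43 (-0.92) and rose in sh_SRSF3 (1.10).

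Of 22 matrix components that these proteases cut, all tested, 3 rose and 10 fell in sh_TDP43 and 4 rose and 15 fell in sh_SRSF3, with medians of -0.31 and -1.19. The shares over all tested genes were 20.7% higher and 24.1% lower in sh_TDP43, and 32.5% and 34.4% in sh_SRSF3. TNC, encoding tenascin C, fell most among the abundant ones in sh_TDP43 (-2.27, SE 0.21, adjusted p = 1.73e-06), followed by COL6A1 (-1.69). In sh_SRSF3 LAMB1 (-2.58, adjusted p = 4.43e-10) and LAMA5 (-2.17, adjusted p = 1.04e-09), both laminin chains, fell most.

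The RIP libraries ask which of these RNAs came down with each tagged protein. Levels are the deposited FPKM values (fragments scaled by gene length and library size), and with 1 library per arm a ratio has no replicate check and no test. Called here means at least 2-fold. In the inputs, MMP14 was at 125 FPKM in the TDP43 input and 108 in the SRSF3 input, TIMP1 at 116 and 98.9, TIMP3 at 80.2 and 56.1, and TIMP2 at 30.2 and 26.0. MMP1 was at 1.91 in the TDP43 input and listed at 0 in the SRSF3 input. MMP3, MMP9 and MMP13 were listed at 0 in all 4 libraries.

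TIMP1 gave the widest contrast between the proteins. Its level went from 116 FPKM in the input to 24.7 in the TDP43 RIP, 4.70-fold lower (log2 ratio -2.23), and from 98.9 in the input to 497 in the SRSF3 RIP, 5.02-fold higher (log2 ratio 2.33). Of the 10647 genes measured for TDP43, 5.04% had a lower ratio than TIMP1, and of the 10693 measured for SRSF3, 95.8% had a lower ratio. The log2 ratio in the SRSF3 RIP exceeded that in the TDP43 RIP by 4.56, against a median of 0.14 over 9810 genes, of which 98.3% had a smaller difference. The second deposited table, a normalised signal per gene, gave log2 ratios of -2.29 and 2.31 for TIMP1.

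TIMP2 went from 30.2 to 21.0 FPKM with TDP43 (log2 ratio -0.53) and from 26.0 to 60.8 with SRSF3 (log2 ratio 1.22, 2.33-fold higher). TIMP3 went from 80.2 to 39.7 with TDP43 (log2 ratio -1.01, 2.02-fold lower) and from 56.1 to 69.8 with SRSF3 (0.31). MMP14 went from 125 to 88.3 with TDP43 (-0.50) and from 108 to 113 with SRSF3 (0.07). All 3 inhibitors were lower than input with TDP43 and higher than input with SRSF3, and MMP14 lay near its input level with SRSF3. The median ratio over all measured genes was 0.03 for TDP43 and 0.23 for SRSF3, so TIMP3 with SRSF3 lay near the median. With SRSF3, 53.3% of measured genes had a lower ratio than TIMP3 and 84.0% a lower ratio than TIMP2. With TDP43 these shares were 19.3% and 31.8%.

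In the TDP43 RIP, 3 of 5 genes with a ratio were at least 2-fold lower (MMP1, TIMP1 and TIMP3), where 19.6% of measured genes were, and none was 2-fold higher, where 21.3% were. In the SRSF3 RIP, 2 of 4 were at least 2-fold higher (TIMP1 and TIMP2), where 21.7% were, and none was 2-fold lower, where 10.9% were. MMP1 went from 1.91 to 0.716 FPKM with TDP43 (log2 ratio -1.30). With SRSF3 it was at 1.28 FPKM in the RIP against an input listed at 0, for which no ratio is given, and the normalised signal table put it at 1.74 in the input and 1.39 in the RIP. TIMP3 with TDP43 was at the 2-fold limit, and so was TIMP2 with SRSF3 once all ratios were centred on their median (0.99).

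**Figure D5:**
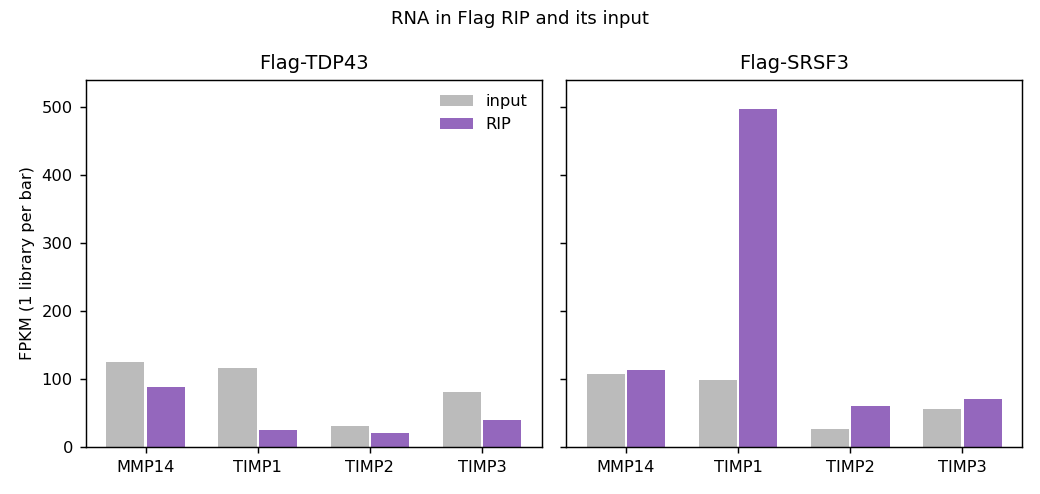
FPKM of MMP14, TIMP1, TIMP2 and TIMP3 in the input and RIP libraries of Flag-TDP43 and Flag-SRSF3, with 1 library per bar. TIMP1 lies at 24.7 in the TDP43 RIP against 116 in its input, and at 497 in the SRSF3 RIP against 98.9 in its input.

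The authors' deposited table also marks genes as bound in 2 columns that do not name the protein in the file. In the authors' deposited table MMP14 and TIMP2 were marked as bound in both columns, and the other 6 genes in neither, TIMP1 among them. Both marks were on 15.4% of all genes, and among 11530 genes at an FPKM of at least 1 in a RIP or its input 65.4% had both. TIMP1 carried no mark although its ratio in the SRSF3 RIP was the highest of the 4 genes with a ratio there.

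For SRSF3, the genes that fell most in the knockdown among the 4 abundant ones had the lowest RIP ratios. MMP14 and TIMP3, with log2 changes of -2.69 and -3.70 in sh_SRSF3, had SRSF3 RIP ratios of 0.07 and 0.31. TIMP1 and TIMP2, with log2 changes of -0.29 and -0.03 in sh_SRSF3, had SRSF3 RIP ratios of 2.33 and 1.22. For TDP43, the log2 changes in sh_TDP43 were -1.31 for MMP14, -1.15 for TIMP3, -0.55 for TIMP1 and -0.27 for TIMP2, and the RIP ratios in the same order were -0.50, -1.01, -2.23 and -0.53. With 4 genes and 1 RIP library no test of this order was made.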

How the data were processed

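RNA-seq of MDA-MB231 cells with hairpins and RIP-seq with inputs were used. The 8 genes and all gene lists were chosen with earlier results of these data known. Per the file headers, the deposited knockdown values are raw counts per gene from featureCounts 1.4.6-p5 over exons, without a strand option, in GRCh37 coordinates, so overlapping genes cannot be fully told apart. HISAT2 2.0.5, STAR 2.5.2a, StringTie 1.3.0 and Cufflinks are named in the submitters' processing notes, with no role given. The RIP values, per the file headers, are FPKM deposited beside the authors' log2 fold changes. A second deposited table holds a normalised signal, with a unit not given in the sources used here. Among the count columns 2 matched no label and were not used, so the combined knockdown, planned as a comparison, was not analysed here.

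Counts of 6 libraries were fitted together by the two-sided quasi-likelihood F-test of edgeR 4.0.16 (R 4.3.3), with TMM scaling, the filterByExpr filter, no covariates and 3 residual degrees of freedom. This left 15026 genes, with calls at a Benjamini-Hochberg adjusted p under 0.05. CPM is TMM-scaled, and RPKM divides it by the deposited exon length. RIP ratios are log2 of (FPKM + 0.1) over (FPKM + 0.1) for genes at FPKM of at least 1 in either library. Of those genes 1.10% (TDP43) and 1.04% (SRSF3) were at 0 in 1 library. A named gene with such a 0 was given no ratio. The depth of the RIP libraries was estimated at 27.7 M to 28.4 M reads. The estimate took the most frequent low value of FPKM times genomic span among short genes as 1 read. That value was sought only within a preset range, which limits the estimate. Floors of 3 counts cover counting error only. Named genes are the 8 genes, the 2 targets and, from each further list, up to 2 called genes of at least 10 CPM with the largest change per knockdown. TIMP4, CD44, PCSK7, ADAM17, FOS and the other MMP genes were named after their values were seen. Alternatives were RLE and upper-quartile scaling, other filters, a replicate block, 2-group fits, leaving out each library, the DESeq2 1.42.0 Wald test and, for RIP, other pseudocounts, centring, no filter and the second table.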

Additional observations from a re-analysis of the deposited data

How the results depend on the processing

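The lower levels of MMP14 and TIMP3 in both knockdowns, and of TIMP1 in sh_TDP43, passed the test under all 13 alternatives: log2 changes ran from -1.45 to -1.18 and from -2.84 to -2.59 for MMP14, and from -1.39 to -0.87 and from -3.93 to -3.42 for TIMP3. Over the 8 genes' values, 245 of 275 alternatives stayed called or stayed not called, 13 lost the call, 17 gained it and no called value reversed. Values that were not called could change sign. MMP9 in sh_TDP43 ran from -0.07 to 0.96, and TIMP2 in sh_SRSF3 from -0.18 to 0.05. TIMP2 in sh_TDP43 lost its call under RLE scaling (adjusted p = 0.0629), upper-quartile scaling (0.185), a mean of at least 1 CPM (0.0689) and a fit of the 2 groups alone (0.0834); without sh_SRSF3 library 1 or 2 the adjusted p was 0.0671 and 0.0814. TIMP1 in sh_SRSF3 gained a call under upper-quartile scaling (-0.44, adjusted p = 0.00779). Upper-quartile scaling moved the median log2 change of all genes to 0.09 in sh_TDP43, -0.19 in sh_SRSF3 and -0.29 between the knockdowns, and its calls split into 3956 higher and 2978 lower (3105 and 3623 under TMM), 3959 and 6020 (4881 and 5164), and 3378 and 6451 (4801 and 5041). In sh_SRSF3 against sh_TDP43, 3 genes were called, counting MMP9; this became 5 without a low-count filter and 5 with a replicate block, and 3 to 5 when single libraries were left out (the lone library of a group is then assumed to vary like the other groups); in each case with 5 calls TIMP1 and TIMP2 joined as higher. Over all tested genes, libraries of the same number deviated together only weakly (correlations 0.120, 0.0755 and 0.0879). MMP1, MMP14, TIMP1 and TIMP3 were higher in library 2 than in library 1 of every group, whereas MMP9, MMP13 and TIMP2 were not. Whether the replicate numbers pair the libraries was therefore not settled. With the block TIMP1 in sh_SRSF3 had an adjusted p of 0.0046, and all other calls of the genes against the control stood. In the RIPs, the 2-fold counts over all genes were 2267 higher and 2082 lower for TDP43 and 2321 and 1163 for SRSF3. Without the filter they became 3952, 3725, 4111 and 2485, and with a pseudocount of 1 the SRSF3 lower count became 729. With that pseudocount TIMP3 in the TDP43 RIP had a log2 ratio of -0.996. Depth limits MMP1, MMP3, MMP9 and MMP13, which had at most 114 reads in a library.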
